A study of Mus musculus with 8 samples.

Results

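Hox genes of the last paralog groups had higher signals in the ventral lumbar cord of MLC/SOD1G93A mice than of FVB mice, with a median log2 difference of 0.40, and the Hox genes before them had a median of −0.02. Of 11 genes in paralog groups 10 to 13, 8 were higher at a limma unadjusted p under 0.05, where 3.61% of all rows were. By the study's one-way analysis of variance, 4 Hox genes were higher at an unadjusted p under 0.05. Differences were largest for Hoxd11 (3.32-fold), Hoxc12 (2.54-fold) and Hoxd10 (2.49-fold), and the genotypes overlapped for Hoxd11 and Hoxc12. Without FVB replicate 3 the log2 difference was 1.12 for Hoxd11 and 0.88 for Hoxd10, against 1.73 and 1.31 with it. Of 25 genes in paralog groups 1 to 9, none was higher at a limma unadjusted p under 0.05. Only Hoxc8 was lower at it (1.45-fold), where 3.08% of all rows were. No Hox gene passed after adjustment over all rows of the array. The Hox genes were taken as array rows with exactly 1 gene symbol of the form Hox, cluster letter and number, and the row of highest mean stood for a gene with several rows. This gave 36 genes of the 22180 that had such a row: 9 in cluster a, 10 in b, 9 in c and 8 in d. Hoxa11 and Hoxd4 had only rows shared with another symbol.

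Hox genes encode homeodomain transcription factors that give cells along the head-to-tail axis their regional identity. They lie in 4 clusters, and their order on the chromosome follows the order of the body levels where they are switched on, so that low paralog numbers mark hindbrain and neck and high numbers mark lumbar, sacral and tail levels. Genes of the same number in different clusters, called paralogs, descend from a shared ancestor. In the spinal cord they set the identity of motor neuron columns and pools, and Hox patterns of the embryo persist in part in the adult cord.

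The RNA was total RNA of the ventral lumbar cord, read on Affymetrix Mouse Gene 2.0 ST arrays, 4 arrays of MLC/SOD1G93A and 4 of FVB mice, all aged 120 days. In MLC/SOD1G93A mice a muscle-specific myosin light chain promoter drives mutant human SOD1, and FVB is the control strain. The labels give neither the sex of the animals nor the lumbar segments taken, and do not say that each array was a separate animal, so p-values measure the spread between these samples. In bulk tissue, fewer cells of a type and less RNA per cell cannot be told apart.

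All values are log2 signals of a row, called a transcript cluster, so 1 unit is a doubling. Every difference is MLC/SOD1G93A minus FVB. Between any pair of arrays the correlation over all 41345 rows was 0.977 to 0.987. Mouse Sod1 averaged 10.86 ± 0.06 in MLC/SOD1G93A and 10.86 ± 0.06 in FVB cord (SD, n = 4 each), which says nothing of the human transgene. Motor neuron markers had a mean over 6 genes of 6.54 to 7.01 on MLC/SOD1G93A and 6.52 to 6.95 on FVB arrays. All but Mnx1 lay at or above the median row. Differences were below 0 in 5 of the 6. None of the 6 reached an unadjusted p under 0.05, and Chat had the lowest p, at a difference of −0.20. The 4 forebrain markers, with Tbr1 at the lowest p, all lay below the median row. Xist, which coats the silenced X chromosome, had 3.71, 4.50, 10.38 and 10.50 on MLC/SOD1G93A arrays, against 4.46, 4.32, 3.63 and 10.41 on FVB arrays.

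Differences were described on either side of a cut between groups 9 and 10. The Hox genes were chosen with earlier results of these data known. Most genes of groups 10 to 13 also varied together between arrays, so the counts below are no test of the cut. Over paralog groups 10 to 13, 10 of 11 differences were above 0, where 51.2% of all rows were, and the median difference was 0.40. Over groups 1 to 9, 9 of 25 were above 0 and the median was −0.02, near the median over all rows, 0.00. At an unadjusted p under 0.05, 8 of 36 Hox genes were higher (22.2%), where 3.61% of all rows were, and 1 was lower (2.78%), where 3.08% of all rows were. At a limma unadjusted p under 0.05 and a fold over 1.5, 5 Hox genes were higher, against 0.626% of all rows, and 0 were lower, against 0.343%. The 5 were Hoxc11, Hoxc12, Hoxc13, Hoxd10 and Hoxd11, all caudal. With the study's own test, a one-way analysis of variance, 2 were higher at these thresholds, Hoxc13 and Hoxd10, against 0.426% of all rows, and Hoxc11, Hoxc12 and Hoxd11 missed the p. Adjusted p-values (Benjamini-Hochberg over all rows) of the Hox genes ran from 0.684 to 0.999. Over the whole array limma called 0 rows at an adjusted p under 0.05 (0%), with 1494 higher and 1275 lower at an unadjusted p under 0.05, and the one-way analysis of variance of the study's methods called 0 as well.

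**Figure D1:**
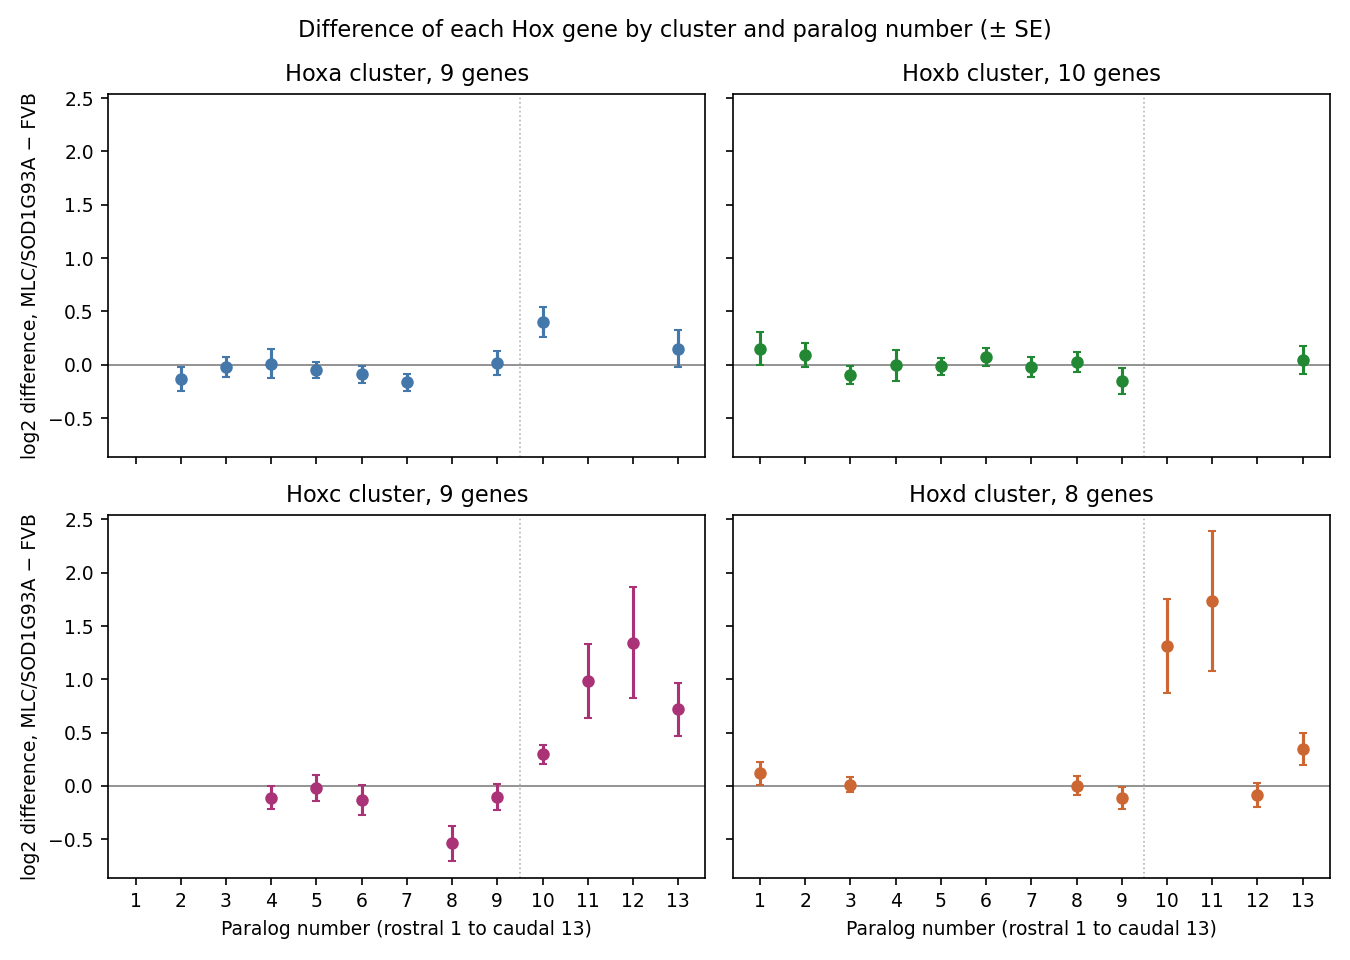
Difference in log2 signal (MLC/SOD1G93A minus FVB, vertical axis) of each of 36 Hox genes against its paralog number (horizontal axis), 1 panel per cluster, with bars of 1 SE and a dotted line between groups 9 and 10. Points of groups 1 to 9 lie within 0.17 of 0 except Hoxc8 at −0.54, and those of groups 10 to 13 reach 1.73 at Hoxd11.

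The Hoxd cluster held Hoxd11, whose difference was the widest of the 36 Hox genes, and its neighbour Hoxd10. Hoxd10 (transcript cluster 17372054) acts with its paralogs in the motor neurons and vertebrae of lumbar level. It had 9.32, 9.33, 9.83 and 9.34 on MLC/SOD1G93A arrays, against 8.45, 8.06, 6.83 and 9.22 on FVB arrays. All 4 MLC/SOD1G93A values lay above all 4 FVB values, with FVB replicate 4 close below them and FVB replicate 3 far below. The difference was 1.31 ± 0.44 (SE), with a limma unadjusted p of 0.0164 and an adjusted p of 0.684. Without FVB replicate 3 the difference was 0.88.

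Hoxd11 (transcript cluster 17372045), known for the forearm skeleton and the kidney, had 7.69, 7.33, 8.50 and 7.87 on MLC/SOD1G93A arrays, against 6.78, 5.75, 4.26 and 7.67 on FVB arrays. The groups overlapped through FVB replicate 4, which stood above MLC/SOD1G93A replicate 2. Its difference was 1.73 ± 0.66 (SE; limma unadjusted p = 0.0284, adjusted p = 0.708). Without FVB replicate 3 its difference was 1.12. In the RefSeq table the spans of Hoxd11 and Hoxd10 overlap on the same strand, so the signals of the 2 rows may share transcripts and are uncertain as separate measures.

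Hoxd13 (transcript cluster 17372035), which shapes digits, had 4.46, 4.27, 4.88 and 4.37 on MLC/SOD1G93A arrays, against 4.01, 4.07, 4.09 and 4.41 on FVB arrays. FVB replicate 4 again lay inside the MLC/SOD1G93A range. The difference was 0.35 ± 0.15 (SE; limma unadjusted p = 0.0466), on a row below the median row of the array, and 0.22 without MLC/SOD1G93A replicate 3.

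Their neighbours did not share this. Hoxd12, which lies between Hoxd11 and Hoxd13, had 5.24, 5.43, 5.34 and 5.42 on MLC/SOD1G93A arrays, against 5.24, 5.75, 5.37 and 5.41 on FVB arrays. Hoxd9, next to Hoxd10 on the rostral side, had 5.71, 5.67, 5.41 and 5.54 on MLC/SOD1G93A arrays, against 5.68, 5.56, 5.64 and 5.90 on FVB arrays. Both overlapped throughout, with differences of −0.09 and −0.11. Hoxd8, Hoxd3 and Hoxd1 differed by 0.00, 0.01 and 0.12, and none reached an unadjusted p under 0.05. Taken within each array, Hoxd10 minus Hoxd9 was 3.61 to 4.42 in MLC/SOD1G93A and 1.19 to 3.32 in FVB cord, which did not overlap, while Hoxd11 minus Hoxd12 overlapped, at 1.90 to 3.16 in MLC/SOD1G93A and −1.11 to 2.26 in FVB cord.

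The promoter windows of the genes at this step, Hoxd9 with little difference and Hoxd10 and Hoxd11 with the 2 widest of the cluster, are shown because they stand side by side on chromosome 2. They are RefSeq sequences (GRCm38.p6, plus strand) of 250 bases before and 50 after a transcript start, and Hoxd11 has 2 starts. Capitals mark matches, on either strand, to a HOX-PBX motif (TGATNNAT), a caudal-type motif (TTTATG) or a MEIS motif (TGACAG).
Hoxd9, chr2:74697513-74697812: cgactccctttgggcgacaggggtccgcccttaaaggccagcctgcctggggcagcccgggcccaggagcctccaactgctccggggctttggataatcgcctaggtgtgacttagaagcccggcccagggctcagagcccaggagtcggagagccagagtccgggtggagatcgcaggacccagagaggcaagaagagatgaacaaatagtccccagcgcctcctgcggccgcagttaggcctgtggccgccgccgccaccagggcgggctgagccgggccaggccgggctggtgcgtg
Hoxd10, chr2:74691641-74691940: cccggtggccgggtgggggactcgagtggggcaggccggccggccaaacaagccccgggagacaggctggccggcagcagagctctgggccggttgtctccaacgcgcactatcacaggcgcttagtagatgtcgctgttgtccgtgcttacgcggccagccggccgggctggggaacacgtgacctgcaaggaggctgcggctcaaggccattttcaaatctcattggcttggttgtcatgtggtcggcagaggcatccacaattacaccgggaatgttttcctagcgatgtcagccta
Hoxd11, chr2:74682073-74682372: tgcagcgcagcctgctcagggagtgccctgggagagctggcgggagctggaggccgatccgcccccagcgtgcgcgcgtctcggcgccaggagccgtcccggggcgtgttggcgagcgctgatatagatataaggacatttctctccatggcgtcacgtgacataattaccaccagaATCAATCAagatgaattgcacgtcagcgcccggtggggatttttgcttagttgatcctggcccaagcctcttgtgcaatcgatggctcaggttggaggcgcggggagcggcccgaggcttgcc
Hoxd11, chr2:74679308-74679607: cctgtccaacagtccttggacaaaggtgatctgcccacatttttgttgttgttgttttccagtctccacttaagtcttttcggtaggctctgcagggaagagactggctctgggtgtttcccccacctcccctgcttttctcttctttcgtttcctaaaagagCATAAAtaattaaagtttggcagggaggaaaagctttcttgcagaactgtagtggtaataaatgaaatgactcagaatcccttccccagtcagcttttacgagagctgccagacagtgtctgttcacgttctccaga
The window that starts at 74682073 held 1 HOX-PBX match and the one at 74679308 held 1 caudal-type match, and the windows of Hoxd9 and Hoxd10 held none of the 3 motifs. Of all 32851 mouse promoter windows of this length, 8.85% held the HOX-PBX, 11.9% the caudal-type and 19.2% the MEIS motif. Among 24 windows of 22 Hox genes the counts were 4, 5 and 2. CG dinucleotides, where Polycomb complexes are known to gather at silent Hox promoters, numbered 20 in the Hoxd9 window, 22 in the Hoxd10 window and 25 and 4 in the Hoxd11 windows. The median was 7 over all windows and 14.5 over the 24 Hox windows, which ran from 4 to 45. A match is a description of the letters and not of binding.

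In the Hoxc cluster all 4 genes from Hoxc10 to Hoxc13 were higher at an unadjusted p under 0.05, and the 5 from Hoxc4 to Hoxc9 all had differences below 0. Hoxc12 (transcript cluster 17315490), a gene of the tail end of the axis, had 7.59, 6.29, 8.34 and 8.18 on MLC/SOD1G93A arrays, against 5.76, 5.96, 5.90 and 7.41 on FVB arrays. MLC/SOD1G93A replicate 2 and FVB replicate 4 crossed, and the other arrays did not. The difference was 1.35 ± 0.52 (SE; limma unadjusted p = 0.0301).

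Hoxc11 (transcript cluster 17315495), a marker of lumbosacral levels, had 4.90, 4.84, 5.54 and 5.12 on MLC/SOD1G93A arrays, against 4.17, 3.79, 3.37 and 5.12 on FVB arrays. FVB replicate 4 was level with MLC/SOD1G93A replicate 4, and the other 3 FVB arrays lay below all MLC/SOD1G93A arrays. The difference was 0.98 ± 0.35 (SE; limma unadjusted p = 0.0207), on a row below the median row.

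Hoxc13 (transcript cluster 17315485), which the hair follicle needs, had 5.75, 5.46, 6.42 and 5.51 on MLC/SOD1G93A arrays, against 4.92, 4.95, 4.80 and 5.61 on FVB arrays. Only FVB replicate 4 reached into the MLC/SOD1G93A range. The difference was 0.72 ± 0.25 (SE; limma unadjusted p = 0.0192).

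Hoxc10 (transcript cluster 17315500), a lumbar motor neuron determinant, had 7.75, 7.92, 7.77 and 7.87 on MLC/SOD1G93A arrays, against 7.48, 7.51, 7.40 and 7.74 on FVB arrays. The groups did not overlap, by a narrow margin at FVB replicate 4. Its difference was small and its spread was small too, at 0.30 ± 0.09 (SE; limma unadjusted p = 0.0112).

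Hoxc8 (transcript cluster 17315514), which acts at brachial and thoracic levels, ran the other way. It had 8.50, 8.61, 8.05 and 8.61 on MLC/SOD1G93A arrays, against 9.20, 8.96, 9.15 and 8.62 on FVB arrays. The groups did not overlap, and MLC/SOD1G93A replicate 4 and FVB replicate 4 were almost level. The difference was −0.54 ± 0.17 (SE; limma unadjusted p = 0.0116, adjusted p = 0.684). Hoxc9, which excludes limb motor neurons from thoracic cord and lies between Hoxc8 and Hoxc10, had 6.65, 6.89, 6.67 and 7.14 on MLC/SOD1G93A arrays, against 6.93, 7.07, 6.94 and 6.83 on FVB arrays. These overlapped, with a difference of −0.11. Within each array, Hoxc10 minus Hoxc9 was 0.73 to 1.10 in MLC/SOD1G93A and 0.43 to 0.91 in FVB cord, which overlapped. Hoxc4, Hoxc5 and Hoxc6 differed by −0.11, −0.02 and −0.13.

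In the Hoxa cluster 1 gene of 9 reached an unadjusted p under 0.05. Hoxa10 (transcript cluster 17466878), the third lumbar paralog beside Hoxc10 and Hoxd10, had 6.20, 6.33, 6.29 and 6.15 on MLC/SOD1G93A arrays, against 5.96, 5.83, 5.44 and 6.12 on FVB arrays. The groups did not overlap, with MLC/SOD1G93A replicate 4 and FVB replicate 4 almost level. The difference was 0.40 ± 0.14 (SE; limma unadjusted p = 0.0196), and 0.27 without FVB replicate 3. Hoxa9, its rostral neighbour, had 7.06, 7.38, 7.16 and 6.94 on MLC/SOD1G93A arrays, against 6.98, 7.15, 7.24 and 7.10 on FVB arrays, with a difference of 0.02. Within each array, Hoxa10 minus Hoxa9 was −1.05 to −0.79 in MLC/SOD1G93A and −1.80 to −0.98 in FVB cord, which overlapped.

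Hoxa13, which acts in digits and the genital tubercle, differed by 0.15 ± 0.17 (SE) on a row below the median row. The 2 rows that carry both Hoxa11 and its antisense gene Hoxa11os were no members, because their signal cannot be given to 1 gene. They differed by 0.57 and 0.27, the first without overlap. From Hoxa2, a gene of the hindbrain and second branchial arch, to Hoxa7, differences ran from −0.17 at Hoxa7 to 0.01 at Hoxa4. Of these Hoxa7 had the lowest p, a limma unadjusted p of 0.0649, with a mean of 7.78 ± 0.11 in MLC/SOD1G93A and 7.95 ± 0.06 in FVB cord (SD, 4 arrays each).

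The Hoxb cluster has no genes of number 10 to 12, and none of its 10 genes reached an unadjusted p under 0.05. Hoxb13, which acts in the prostate and the tail, differed by 0.05 ± 0.13 (SE) on a row below the median row. Differences of the other 9 ran from −0.15 at Hoxb9 to 0.15 at Hoxb1, a gene of the fourth rhombomere that patterns facial motor neurons. Hoxb5 had a second, dimmer row that differed by 0.04, and the row shared by Mir10a and Hoxb4 differed by 0.34 on a signal below the median row.

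By paralog number, the 3 genes of group 10 (Hoxa10, Hoxc10 and Hoxd10) were all higher at an unadjusted p under 0.05 and all without overlap. Over all rows, groups were apart with MLC/SOD1G93A higher in 2.11% and lower in 2.1%, and among the 36 Hox genes in 3 and 1. Both genes of group 11, 1 of 2 in group 12 and 2 of 4 in group 13 were higher at that p. In group 9 the 4 differences lay between −0.15 and 0.02, in groups 4 to 8 between −0.54 and 0.08 over 14 genes, and in groups 1 to 3 between −0.13 and 0.15 over 7 genes. Without Hoxc8, no gene of groups 1 to 9 was further than 0.17 from 0. Rows of 30 of the 36 genes lay at or above the median row (5.33). Those below it were Hoxb1 and Hoxd1 at the rostral end and Hoxa13, Hoxb13, Hoxc11 and Hoxd13 at the caudal end. Over the 7 caudal genes at or above the median row, the median difference was 0.72.

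**Figure D2:**
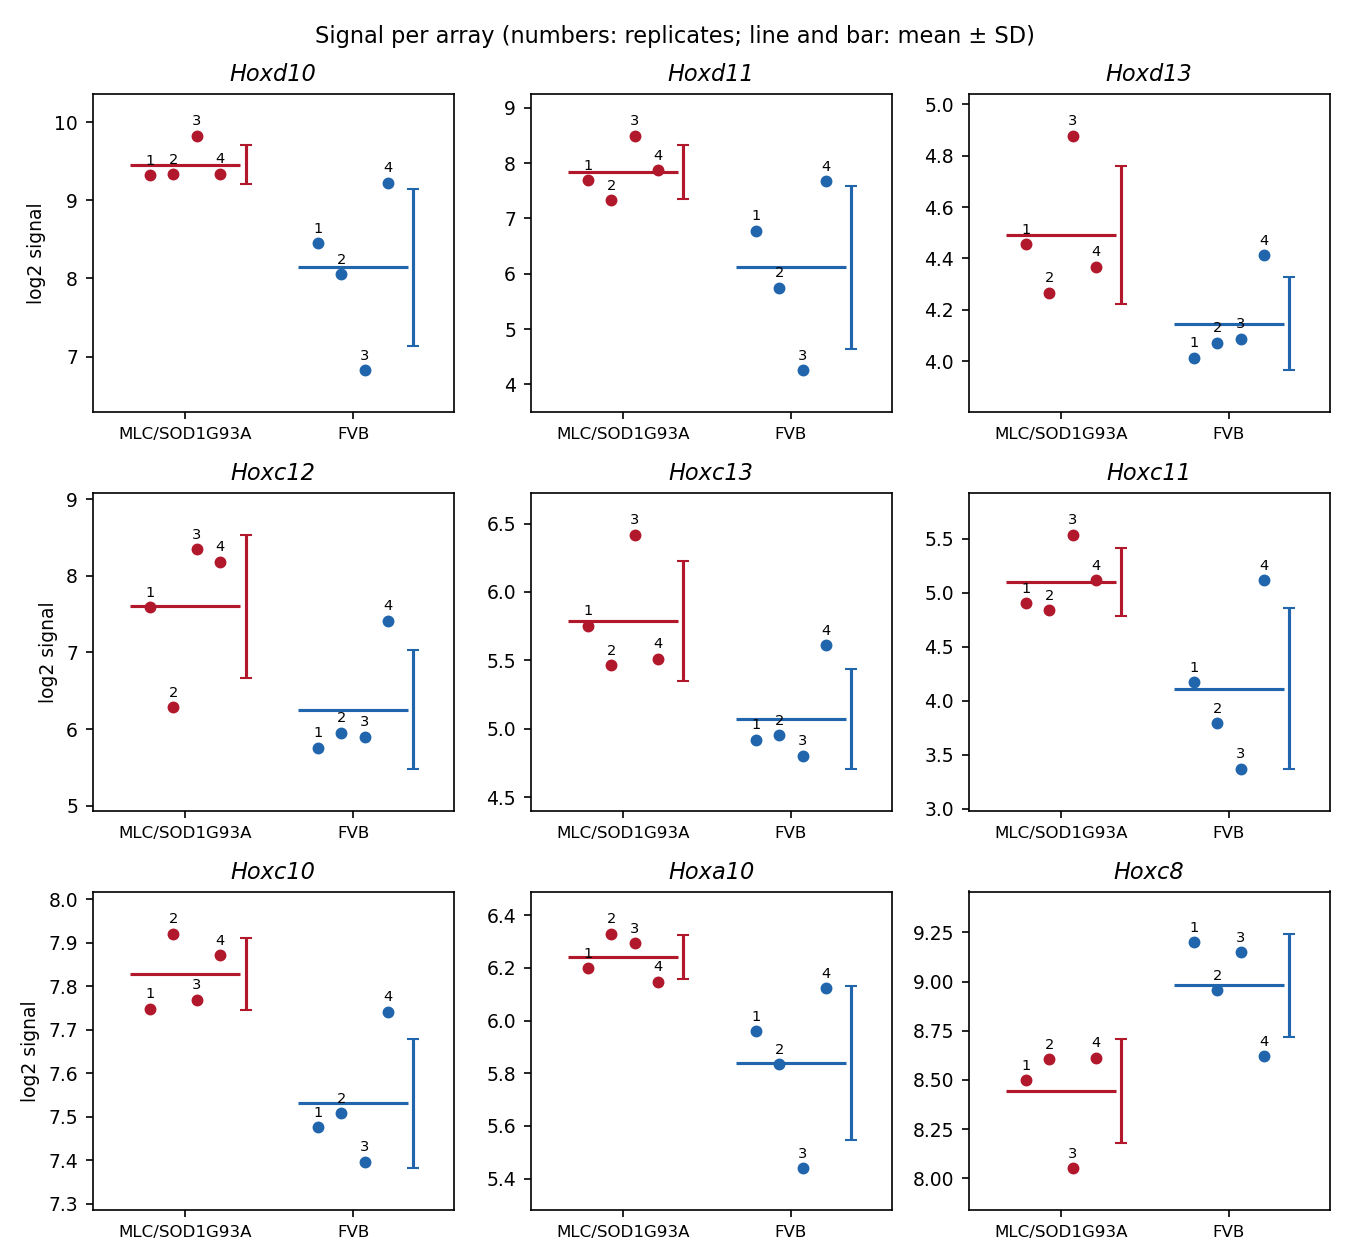
Log2 signal (vertical axis) of the 9 Hox genes with an unadjusted p under 0.05, on MLC/SOD1G93A arrays (left, red) and FVB arrays (right, blue), each point numbered by replicate, with the mean as a line and 1 SD as a bar. FVB replicate 4 is the FVB array nearest to the MLC/SOD1G93A arrays in each panel, for example at 9.22 against 6.83 to 8.45 on the other FVB arrays for Hoxd10.

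The caudal signals also varied between arrays of 1 genotype. After each gene was centred on its mean over 8 arrays, the median of the 11 caudal genes was 0.16, 0.04, 0.56 and 0.19 on the MLC/SOD1G93A arrays, against −0.31, −0.25, −0.60 and 0.18 on the FVB arrays. FVB replicate 4 thus stood among the MLC/SOD1G93A arrays. It was above the other FVB arrays in 10 of 11 caudal genes, all but Hoxd12, and inside the MLC/SOD1G93A range in 7. With 1 array left out at a time, the median difference of the 11 caudal genes ran from 0.33 to 0.50, and was highest without FVB replicate 4. MLC/SOD1G93A replicate 3 was the highest array in 6 of 11, and FVB replicate 3 the lowest in 6.

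The same medians over the 25 genes of groups 1 to 9 stayed between −0.12 and 0.07 in MLC/SOD1G93A and between −0.04 and 0.05 in FVB cord. The spread between FVB arrays reached an SD of 1.47 for Hoxd11, and was at most 0.27 for any gene of groups 1 to 9. Leaving out 1 array at a time kept all 9 directions. The number of Hox genes higher at an unadjusted p under 0.05 was 4 without MLC/SOD1G93A replicate 3, without FVB replicate 2 or without FVB replicate 3, and 5 without MLC/SOD1G93A replicate 4. Hoxc8, Hoxc10, Hoxd10 and Hoxa10 stayed under that p in each of these fits. Hoxc13 lost it without FVB replicate 3, Hoxc11 without MLC/SOD1G93A replicate 3 or FVB replicate 2 or 3, and Hoxd11 without MLC/SOD1G93A replicate 3 or 4 or FVB replicate 2. Hoxc12 and Hoxd13 each lost it without MLC/SOD1G93A replicate 1, 3 or 4 or FVB replicate 1, 2 or 3.

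**Figure D3:**
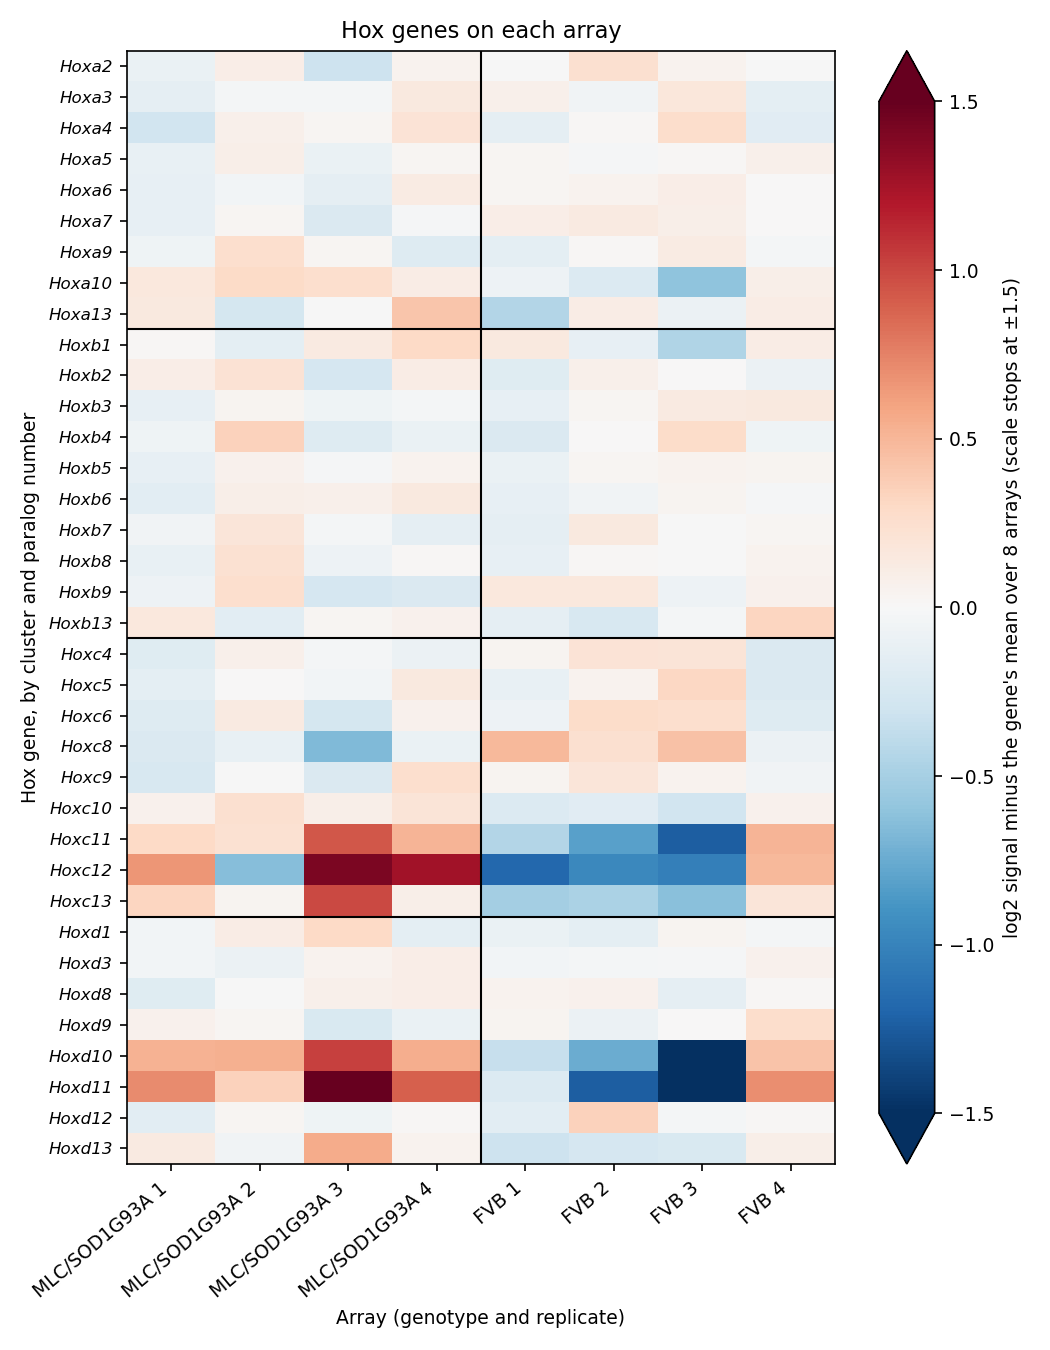
Each of 36 Hox genes (rows, by cluster and paralog number) on each of 8 arrays (columns, MLC/SOD1G93A left of the line and FVB right), coloured by log2 signal minus the gene's mean over the arrays. The rows of Hoxc11 to Hoxc13, Hoxd10 and Hoxd11 carry most of the colour, and FVB replicate 4 resembles the MLC/SOD1G93A columns in them.

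Other measures of the arrays moved with part of this pattern. The 5 arrays with low Xist were MLC/SOD1G93A replicates 1 and 2 and FVB replicates 1 to 3. Among them the median difference of the 11 caudal genes was 0.52. The 3 arrays with high Xist were MLC/SOD1G93A replicates 3 and 4 and FVB replicate 4, the single FVB array there. Among these the median difference was 0.21. Genes of the Y chromosome ran opposite to Xist. With high Xist, Uty had 3.33 to 3.78, Kdm5d 3.56 to 4.50 and Eif2s3y 3.76 to 4.34. With low Xist, Uty had 7.90 to 8.16, Kdm5d 7.48 to 7.80 and Eif2s3y 7.65 to 7.97. By these signals the 3 arrays read as female and the 5 as male. FVB replicate 4 was thus the single FVB array that read as female. In the fit with Xist as a covariate, 7 Hox genes were higher at an unadjusted p under 0.05.

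The mean of 8 sensory ganglion markers was 6.57, 6.63, 4.81 and 4.88 on the MLC/SOD1G93A arrays, against 4.78, 5.90, 4.71 and 6.17 on the FVB arrays. All 8 had differences above 0, and none reached an unadjusted p under 0.05, with Pou4f1 at the lowest p. Within FVB, replicate 4 was highest and replicate 3 lowest both in this mean and in the caudal Hox median. Within MLC/SOD1G93A, replicate 3 was lowest in this mean and highest in the caudal Hox median. With that mean as a covariate 7 Hox genes were higher at an unadjusted p under 0.05, and with Xist and that mean together 5 were.

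Schwann cell markers were higher at an unadjusted p under 0.05 in 8 of 9 genes, beside 3.61% of all rows. The 8 were Pmp22, Drp2, Dhh, Gldn, Cdh19, Scn7a, Ncmap and Egr2. The mean over the 9 was 7.91, 7.90, 7.38 and 7.77 on MLC/SOD1G93A arrays, against 6.96, 7.05, 7.12 and 7.44 on FVB arrays. FVB replicate 4 thus lay above MLC/SOD1G93A replicate 3. Oligodendrocyte markers were lower at that p in 3 of 5 (Opalin, Mog and Cnp), beside 3.08% of all rows. Their mean was 9.57, 9.30, 9.35 and 9.46 on MLC/SOD1G93A arrays, against 9.86, 9.79, 9.89 and 9.67 on FVB arrays. None of these markers was at 0. The part of Schwann cell and oligodendrocyte content in the Hox differences was not tested.

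RNAs made inside the clusters were followed as well, 7 of 16 listed having a row of their own. Their microRNAs are known to act on Hox transcripts, and the mature sequences from RefSeq (GRCm38.p6) are shown with the seed, bases 2 to 8, in capitals.
mmu-miR-196a-5p: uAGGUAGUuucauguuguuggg
mmu-miR-196b-5p: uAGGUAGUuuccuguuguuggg
mmu-miR-10a-5p: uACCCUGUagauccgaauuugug
mmu-miR-10b-5p: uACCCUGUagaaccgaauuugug
mmu-miR-615-3p: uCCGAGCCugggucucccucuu
The miR-196 pair shares the seed AGGUAGU and the miR-10 pair the seed ACCCUGU. The array rows are those of the miRNA genes and not of these mature strands.

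Mir196a-2, a miR-196a gene of the Hoxc cluster that lies between Hoxc9 and Hoxc10, had 5.46, 5.69, 5.67 and 5.33 on MLC/SOD1G93A arrays, against 5.18, 5.27, 5.19 and 5.19 on FVB arrays. The groups did not overlap, with a difference of 0.33 ± 0.09 (SE; limma unadjusted p = 0.00776, adjusted p = 0.684). Mir196a-1, which makes the same mature strand from the Hoxb cluster, differed by 0.15 (limma unadjusted p = 0.149). Transcripts that miR-196 is known to bind are those of Hoxb8, Hoxc8, Hoxd8 and Hoxa7, whose differences were 0.03, −0.54, 0.00 and −0.17. A relation between them was not tested.

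Hotair, a long noncoding RNA made between Hoxc11 and Hoxc12 from the opposite strand, had 6.48, 5.59, 7.15 and 6.49 on MLC/SOD1G93A arrays, against 5.18, 5.06, 5.42 and 6.47 on FVB arrays. FVB replicate 4 and MLC/SOD1G93A replicate 2 crossed, as they did for Hoxc12. The difference was 0.89 ± 0.39 (SE; limma unadjusted p = 0.0498). Mir615, which lies within Hoxc5, had 6.55, 6.15, 6.33 and 6.79 on MLC/SOD1G93A arrays, against 6.67, 6.90, 7.003 and 6.65 on FVB arrays. These overlapped at a difference of −0.35 ± 0.15 (SE; limma unadjusted p = 0.0467). Mir10b, Hoxd3os1 and Hoxaas3 differed by −0.06, −0.04 and 0.05.

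**Figure D4:**
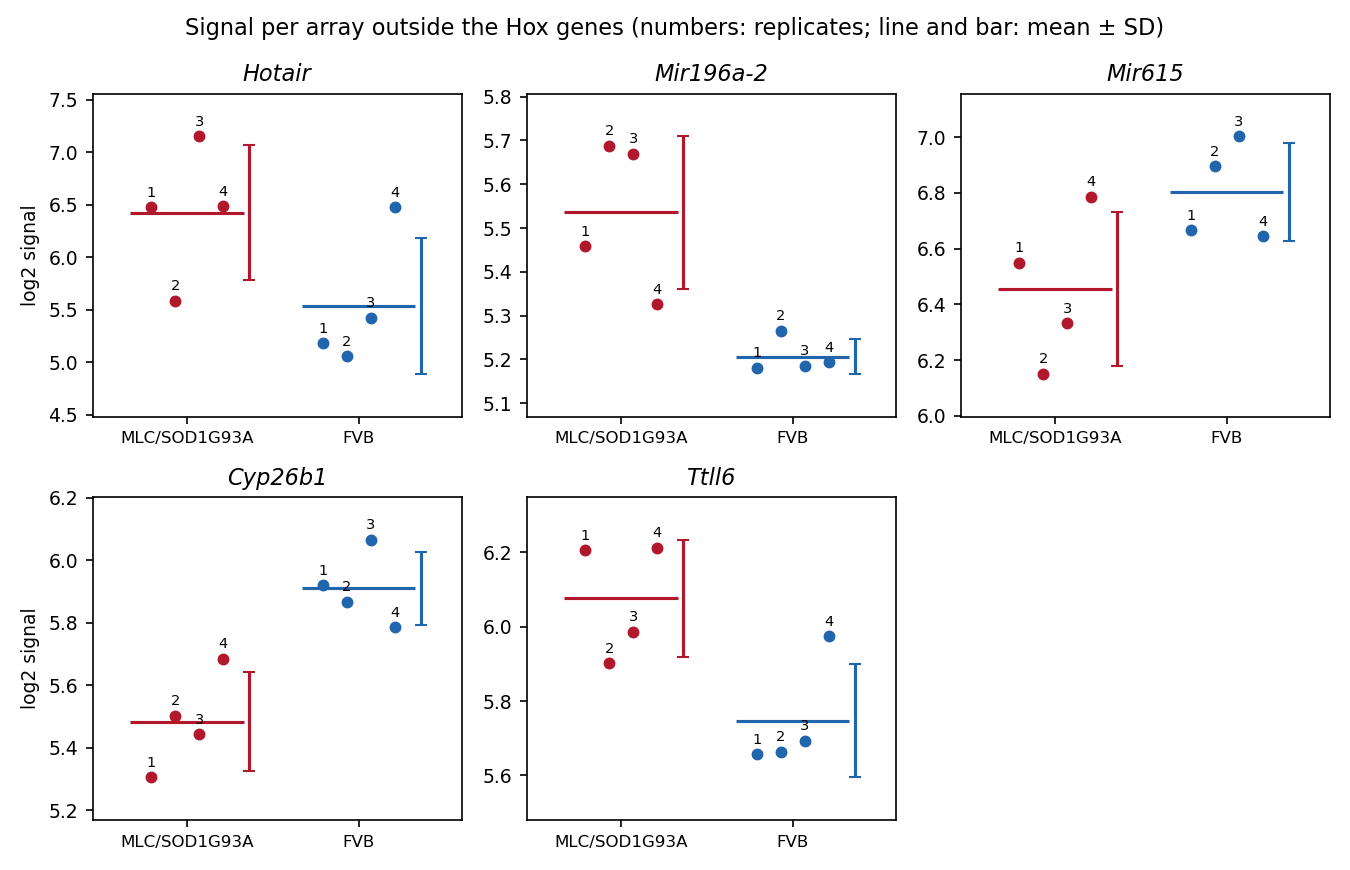
Log2 signal (vertical axis) of Hotair, Mir196a-2 and Mir615 of the Hoxc cluster, of Cyp26b1 and of Ttll6, on MLC/SOD1G93A arrays (left, red) and FVB arrays (right, blue), each point numbered by replicate, with the mean as a line and 1 SD as a bar. Mir196a-2 and Cyp26b1 do not overlap between genotypes, and Hotair at FVB replicate 4 (6.47) lies at the level of 2 MLC/SOD1G93A arrays.

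Genes that bind with, switch on or silence Hox genes are read against the share of all rows at an unadjusted p under 0.05, 3.61% higher and 3.08% lower. TALE homeodomain proteins, with which Hox proteins bind DNA, had 0 of 8 genes at an unadjusted p under 0.05 in either direction, and Pbx3 had the lowest p at a difference of −0.16 (limma unadjusted p = 0.0978). Of 14 genes that set the axis in the embryo (Cdx factors, retinoic acid, Gdf11, Wnt3a and Fgf8), 1 was lower at that p. It was Cyp26b1, an enzyme that breaks down retinoic acid, with 5.30, 5.50, 5.44 and 5.68 on MLC/SOD1G93A arrays, against 5.92, 5.87, 6.07 and 5.79 on FVB arrays. The groups did not overlap, with a difference of −0.43 ± 0.10 (SE; limma unadjusted p = 0.00259, adjusted p = 0.621). Cdx1, Cdx2 and Cdx4, which open the caudal Hox genes in the embryo, differed by −0.13, −0.06 and 0.03.

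Of 19 Polycomb and Trithorax genes, which keep Hox genes silent or active, 1 was lower and 0 higher at an unadjusted p under 0.05, beside 3.08% and 3.61% of all rows. Phc1, a subunit of Polycomb repressive complex 1, differed by −0.19 ± 0.07 (SE; limma unadjusted p = 0.0259) without overlap. Rnf2, the ubiquitin ligase of that complex, differed by 0.14 ± 0.07 (SE; limma unadjusted p = 0.0783), also without overlap. Of 10 transcription factors of motor neuron columns that Hox genes are known to act with, 0 reached that p, with Pou3f1 (0.16) and Lhx1 (−0.14) at the lowest p-values. Of 7 Evx and Dlx homeobox genes, relatives of the Hox genes, only Dlx6 reached it, at −0.26 ± 0.10 (SE; limma unadjusted p = 0.0351). The Dlx6 row lay below the median row.

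The genes that flank the clusters, up to 2 on each side, had differences of −0.16 to 0.33. Evx1 beside Hoxa13 and Evx2 beside Hoxd13 differed by 0.01 and 0.00, and Lnpk, the next gene after Evx2, by −0.03. On the rostral side Mtx2 beside Hoxd1, Skap1 beside Hoxb1 and Smug1 beside Hoxc4 differed by 0.19, −0.01 and −0.10. Atp5g2, a subunit of ATP synthase that lies past Calcoco1 on the Hoxc13 side, differed by −0.11 without overlap. Of 15 measured flanking genes, 1 was higher and 0 lower at an unadjusted p under 0.05, beside 3.61% and 3.08% of all rows. It was Ttll6 beside Hoxb13, an enzyme that adds glutamate chains to tubulin, with 6.21, 5.90, 5.99 and 6.21 on MLC/SOD1G93A arrays, against 5.66, 5.66, 5.69 and 5.97 on FVB arrays. FVB replicate 4 crossed into the MLC/SOD1G93A range, and the difference was 0.33 ± 0.11 (SE; limma unadjusted p = 0.0153). The remaining flanking genes Snx10, Skap2, Hibadh, Calcoco2, Snx11, Calcoco1 and Cbx5 differed by −0.16 to 0.13.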

How the data were processed

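The authors deposited 1 log2 signal for each transcript cluster and array. They had summarised the scans by RMA and normalized them by sketch quantiles (Affymetrix Expression Console and RMA in the submitters' processing notes). Versions, filters and the array's genome build are not given in the sources used here. Quantile normalization gives all arrays about 1 distribution, and would hide a shift of most rows. Arrays have no read depth, and their number limits the precision.

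Symbols came from the platform annotation, with 1 symbol on 23521 rows, several on 1820 and none on 16004. No further normalization was applied. All 41345 rows were fitted in R 4.3.3 with limma 3.58.1 (lmFit, eBayes), in an unpaired design with no covariate, since the study's own test was an unpaired one-way analysis of variance, with Benjamini-Hochberg adjustment over all rows, and the procedure was tested on simulated data. Groups are apart where no value of one genotype lies inside the range of the other.

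Values in every array were given for Hox genes with an unadjusted p under 0.05 or with the genotypes apart, and for their neighbours. In the other lists, members at an unadjusted p under 0.05 or else of lowest p were named, some with differences only. Further list members that the text names, such as Rnf2, Mir196a-1 and the Cdx genes, were picked with their values known. The Hox genes and the lists were chosen with earlier results of these data known. Neighbours of the Hox clusters, overlaps of gene spans, promoter windows and miRNA sequences came from RefSeq tables of GRCm38.p6, of which only the coordinates of promoter windows are printed. Alternatives were other tests, normalizations, filters, covariates and each array left out, of which the fits on low-Xist arrays and with Xist and sensory markers together were added after seeing the data.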

Additional observations from a re-analysis of the deposited data

Results flagged for a closer look

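In groups of 4 arrays, 76 were tested for a single array far from the other 3, and chance flags about 1 in 20. This picked out 4. Hoxd10 on MLC/SOD1G93A replicate 3 was at 9.83, above 9.32 to 9.34 on the other 3 MLC/SOD1G93A arrays. Hoxc12 on FVB replicate 4 was at 7.41, above 5.76 to 5.96 on the other 3 FVB arrays. Hoxb5 on FVB replicate 1 was at 7.84, below 7.97 to 7.99 on the others. Mir196a-2 on FVB replicate 2 was at 5.27, above 5.18 to 5.19 on the others.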

How the results depend on the processing

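Over 19 alternatives to the fit, no direction of the 9 named Hox genes was reversed, and in 31 of 169 values the unadjusted p rose above 0.05. Hoxc8, Hoxc10 and Hoxd10 stayed below it throughout, and Hoxd13 rose above it in 13 of 18. The count of 8 Hox genes higher at that p became 4 by the methods' one-way analysis of variance and 5 with Xist and sensory ganglion markers as covariates, and 4 to 8 with 1 array left out. The count of 1 lower became 2 by that analysis of variance, with only rows at or above the median signal, or with an intensity trend and robust prior, and 1 to 3 with 1 array left out (3 without MLC/SOD1G93A replicate 2). The cause of these changes was not tested. The median difference of groups 10 to 13 ran from 0.29 to 0.72 and that of groups 1 to 9 from −0.08 to 0.01, and no fit called a row at an adjusted p under 0.05. Same-numbered arrays correlated at −0.04, 0.18, −0.08 and 0.24 in their deviations, and the other pairs at −0.25 to 0.16. These values cannot decide whether shared replicate numbers pair the arrays. With the replicate block, 7 Hox genes were higher and 1 lower. The number of arrays, 4 a genotype, limits the precision.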
